A study of Arabidopsis thaliana with 6 samples.

Results

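The genes described here are 8 cytokinin synthesis genes of Arabidopsis thaliana, the isopentenyltransferase genes IPT1, IPT3, IPT5 and IPT7 and the LONELY GUY genes LOG1, LOG4, LOG7 and LOG8. They were chosen by name among 27444 protein-coding genes, and each name matched 1 locus of the RefSeq gene table. For each gene, all binding peaks of the MADS-domain transcription factor FRUITFULL (FUL) were gathered whose summit, the position of highest enrichment in a peak, lay in the gene or within 3 kb of either end. Of the 8 genes, 4 had such a peak in at least 1 tissue (IPT3, IPT5, LOG1 and LOG8), as had 29.7% of all protein-coding genes.

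In this ChIP-seq study a fusion of FUL to GFP, driven by the promoter of FUL itself (pFUL:FUL-GFP), was precipitated with anti-GFP microbeads from 2 tissues. The inflorescence meristem (IM) samples came from uninduced 35S:AP1-GR ap1-1 cal-1 plants aged 4 to 5 weeks, whose apices produce meristems again and again instead of flowers. The pistil samples came from ful-1 plants at flower stages 12 to 16, a span that runs from before flower opening to after pollination. Both lines were F2 plants of the ecotypes Ler and Col, raised without treatment at 21 °C in days of 16 h light and 8 h dark. For either tissue there were 2 ChIP replicates and 1 input. The tissue changed together with the mutant background, in which ful-1 is named for the pistil plants only, so the effects of tissue and background cannot be told apart.

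Cytokinins are plant hormones that keep the shoot meristem dividing and that also take part in ovule number, gynoecium growth and the patterning of the fruit. IPT enzymes join an isoprenoid side chain to ATP or ADP, which is the first step of the synthesis of isopentenyladenine and trans-zeatin. LOG enzymes, first named in rice, cut the ribose phosphate from cytokinin nucleotides and release the active free base in 1 step. FUL promotes flowering and the growth of the fruit valves, and MADS-domain proteins such as FUL bind DNA as dimers at CArG boxes.

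The authors deposited 1 list of peaks per tissue, with 3650 peaks for IM and 3494 for pistil, called on the replicates together. No value per replicate was used here, so the values below carry no error, no test of a difference between tissues was possible, and the read depth behind them is unknown. Each fold enrichment is the authors' ratio at the summit. It ranged from 2.32 to 9.81 among IM peaks, with a median of 3.77, and from 1.80 to 15.3 among pistil peaks, with a median of 4.10. The lists end at different limits, at a −log10 p of 22.4 for IM and of 34.4 for pistil, and a gene without a listed peak is not shown to be unbound. For these reasons folds and their percentiles are read within their own list only. Peak positions are on TAIR10. The gene table holds no strand, so the ends of a gene are named by lower and higher coordinate, and promoters are not told apart from the other flank. Whether FUL regulates a gene near its summit was not measured.

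IM peaks lay at IPT3, IPT5, LOG1 and LOG8, 4 of the 8 genes, where 23.7% of all protein-coding genes had an IM summit in the same window. Pistil peaks lay at IPT3, LOG1 and LOG8, 3 of the 8 genes, where 21.3% of all genes had a pistil summit. The same 3 genes had summits in both tissues (15.3% of all genes), IPT5 had one in the IM list only (8.36% of all genes), and no gene of the 8 had one in the pistil list only (6.01% of all genes). IPT1, IPT7, LOG4 and LOG7 had none in either list. Within 1 kb lay a summit for IPT3, IPT5 and LOG8 in IM (13.9% of all genes) and for IPT3, LOG1 and LOG8 in pistil (11.9% of all genes). With so few genes, the counts are a description and not a result about the group. The lists held 5 IM peaks and 5 pistil peaks at these genes. They formed 6 sites, of which 4 were listed in both tissues, 1 in IM and 1 in pistil. Of the 5 peaks at these genes in each list, 4 overlapped a peak of the other list, as did 59.5% of all IM peaks and 63.4% of all pistil peaks.

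**Figure D1:**
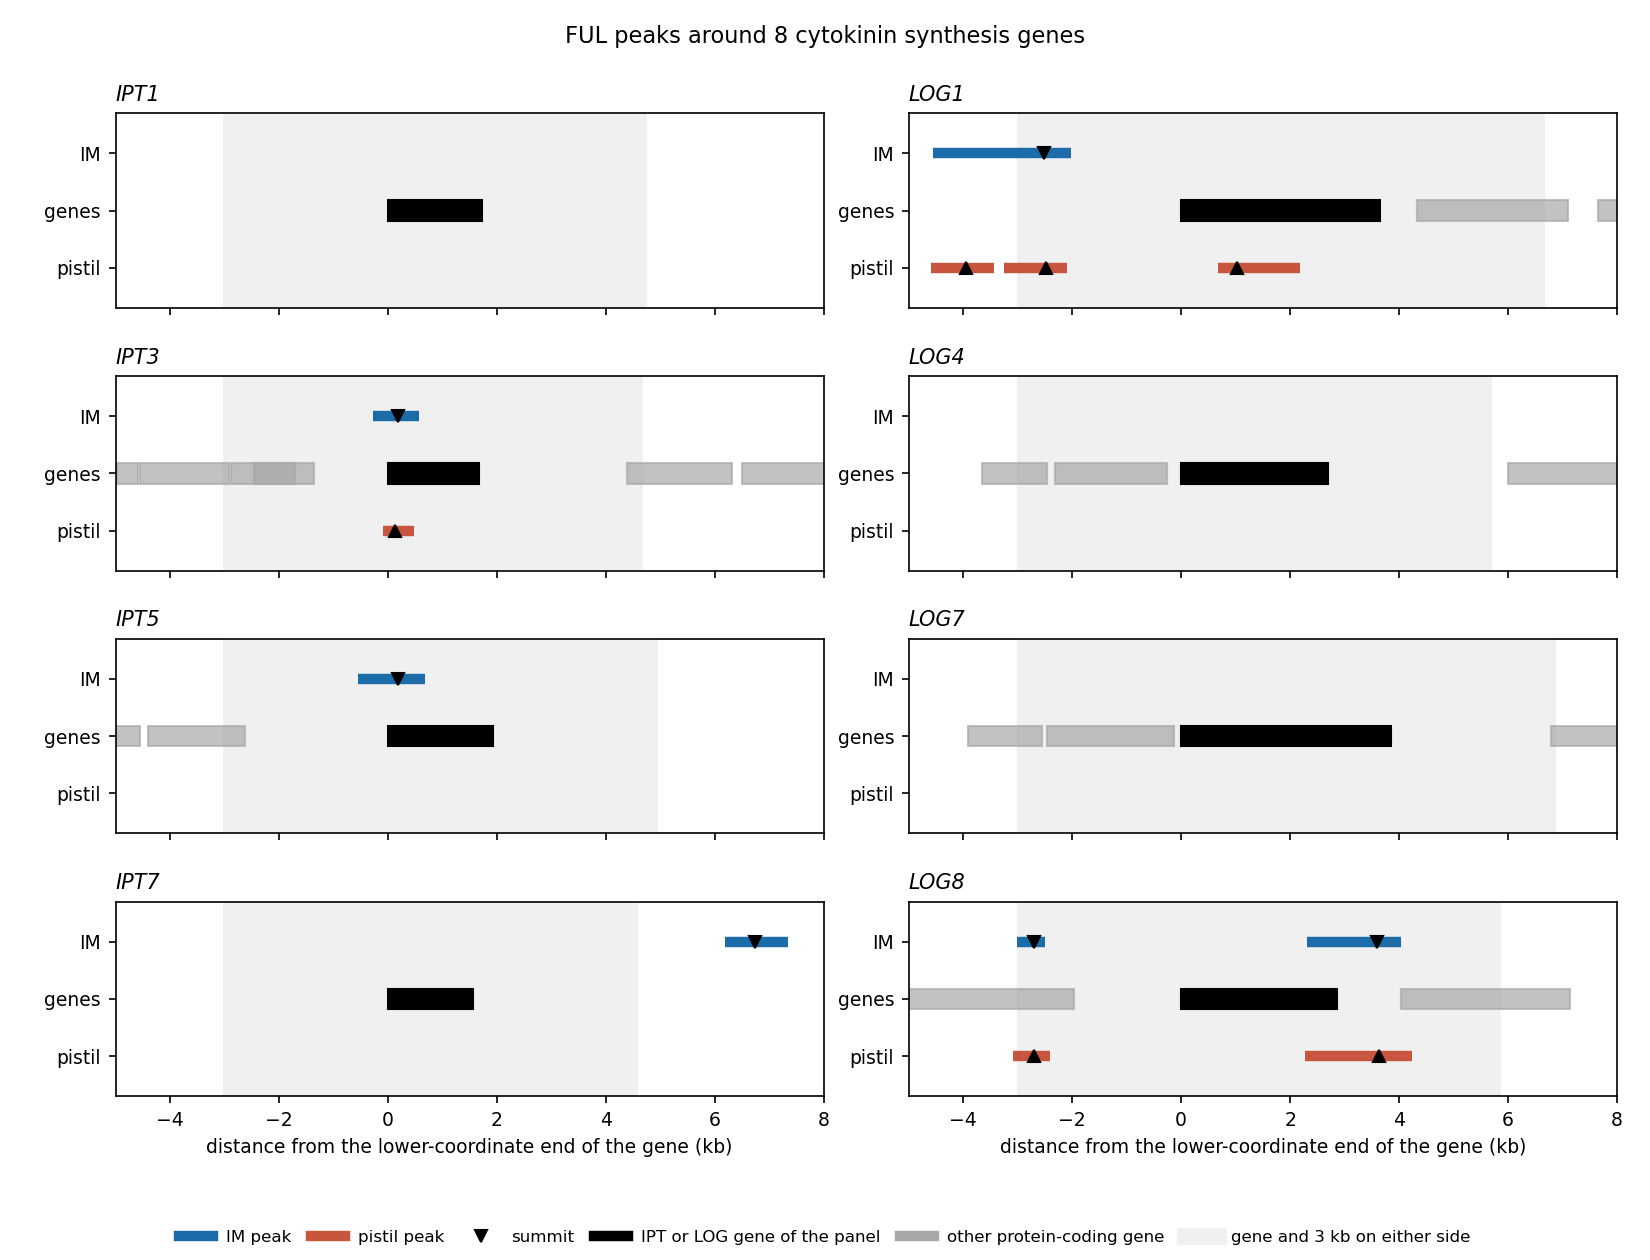
Position of FUL peaks around the 8 genes, in kb from the lower-coordinate end of each gene, with IM peaks above and pistil peaks below the genes and a triangle at each summit. Summits lie inside IPT3, IPT5 and LOG1, on 1 side of LOG1 and on both sides of LOG8, while the shaded windows of IPT1, IPT7, LOG4 and LOG7 hold no summit.

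Among the IPT genes, IPT5 had the highest enrichment, and only in the IM list. Its peak on chromosome 5 (6361235 to 6362448) had a fold of 7.45, which was rank 85 of the 3650 IM peaks and the 97.7th percentile, and a −log10 p of 138. The summit lay inside IPT5, 180 bp from its lower-coordinate end, and the next protein-coding gene, AT5G19030, was 2798 bp away. The peak was 1214 bp wide, against a median width of 1075.5 bp in the IM list. It overlapped no pistil peak. The nearest pistil summit was 18945 bp from IPT5, and another gene, LUL3, was nearer to it, at 2053 bp. Of the 85 IM peaks with a fold at or above that at IPT5, 2 had no overlapping pistil peak, the IPT5 peak among them. Of all IM peaks, 59.5% overlapped a pistil peak. The limit of this count was set at the fold of IPT5 itself, so the count is a description and not a test.

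IPT3, an IPT gene known for its response to nitrate, had a lower fold than IPT5 in IM, and its peaks lay at 1 site in both tissues. In the IM list the peak on chromosome 3 (23317706 to 23318538) had a fold of 3.69, at the 47.1st percentile, with a −log10 p of 40.0. In the pistil list the peak (23317880 to 23318447) had a fold of 3.03, at the 5.87th percentile, and a −log10 p of 34.4. By −log10 p this was rank 3493 of 3494 pistil peaks, so that it stood next to the end of the list. Both folds were below the median of their own list. The pistil peak lay wholly within the IM peak, and the summits were 49 bp apart, against a median of 44 bp (quartiles 18 to 102 bp) over all 2237 overlapping pairs of peaks.

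In the IM list the IPT3 and IPT5 summits lay 181 bp (IPT3) and 180 bp (IPT5) from the lower-coordinate end, and in the pistil list the IPT3 summit lay 132 bp from it. The genes are 1666 bp (IPT3) and 1938 bp (IPT5) long, so each summit was at least 1484 bp from the other end, and without strand it is not known whether these ends are starts of the genes. A summit inside the gene was found in 3.88% of all protein-coding genes in IM and in 3.25% in pistil.

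IPT1 and IPT7 had no summit in the window, and both stand alone, with at least 6015 bp to the next protein-coding gene on either side. The IM summit nearest to IPT7 was 5173 bp away (fold 4.70) and was nearer to AT3G23633, at 1001 bp. Its nearest pistil summit was at 8166 bp, beside RTFL13 (fold 8.33). For IPT1 the nearest summits were at 9753 bp in IM and 11461 bp in pistil.

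Among LOG1, LOG4, LOG7 and LOG8, only LOG1 was the nearest gene to a summit. Its main site lay on the lower-coordinate side, in the gap of 7743 bp that separates LOG1 from SYD, which encodes a chromatin-remodelling ATPase. The IM peak on chromosome 2 (12076467 to 12079005) had a fold of 6.81, at the 95.5th percentile, with its summit 2516 bp from LOG1 and 5228 bp from SYD. The pistil peak (12077767 to 12078926) had a fold of 9.49, at the 94.8th percentile, with its summit 2487 bp from LOG1. The summits were 29 bp apart, and the site ranked high in both lists, 167 of 3650 in IM and 184 of 3494 in pistil.

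Around this site the lists differed in how the region was split into peaks. The IM peak was 2539 bp wide, where the IM upper quartile was 1537.75 bp, and it overlapped a further pistil peak (12076426 to 12077593, fold 5.38). The summit of that pistil peak fell outside the window, 3955 bp from LOG1, and SYD was nearer, at 3789 bp. The name of the IM peak ends in a letter, which the peak caller adds where it finds more than 1 summit in a peak, and only this summit is listed. Names ending in a letter were common, with 992 of the IM peaks and 1128 of the pistil peaks. Among them were a pistil peak inside LOG1 and both peaks on the higher-coordinate side of LOG8, described below.

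LOG1 also had a pistil peak in the gene itself (12081694 to 12083213, fold 3.64, 34.7th percentile), with its summit 1026 bp from the lower-coordinate end of this 3656 bp gene. It had no partner in the IM list. By its −log10 p of 52.0 it was rank 2469 of 3494 pistil peaks. LOG1 thus had 2 pistil summits in its window, as did LOG8, where 3.34% of all genes had 2 or more. In IM only LOG8 of the 8 had 2, against 3.55% of all genes.

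LOG8 had a peak on each side in each tissue, 4 in all, and another gene was nearer to every one of these summits. On the higher-coordinate side, the IM peak on chromosome 5 (3856695 to 3858431) had a fold of 5.04, at the 80.3rd percentile, with its summit 743 bp from LOG8 and 442 bp from AT5G11960. The pistil peak at this site (3856662 to 3858623) had a fold of 11.8, the highest at any of the 8 genes and rank 49 of 3494, with its summit 774 bp from LOG8 and 411 bp from AT5G11960. The summits of both tissues were 31 bp apart and lay between the genes, in a gap of 1184 bp. Both peaks reached into LOG8 at one end and into AT5G11960 at the other.

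On the lower-coordinate side of LOG8 the summits lay inside the neighbouring gene AT5G11940. The IM peak (3851379 to 3851891) had a fold of 2.86, at the 4.74th percentile, and a −log10 p of 22.4, rank 3643 of 3650, near the end of the IM list. The pistil peak (3851306 to 3851987) had a fold of 8.90, at the 93.1st percentile, and a −log10 p of 312. The summits were 10 bp apart, 2708 bp (IM) and 2698 bp (pistil) from LOG8. The site thus stood near the bottom of the IM list and near the top of the pistil list, and ranks in lists of different length and limit do not measure a change in binding. This site was also the one just inside the 3 kb window. Another gene being nearer was common over the whole series, in 53.2% of gene and summit pairs in IM and 51.7% in pistil.

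LOG4, which is known to be active in the outer layer of the shoot meristem, and LOG7 had no summit in the window in either list. The summit nearest to LOG4 was 20862 bp away in IM and 20782 bp in pistil. For LOG7 it was 6930 bp away in IM, where NHL3 was nearer, and 25848 bp in pistil. The next protein-coding gene on the lower-coordinate side was at 263 bp for LOG4 and 122 bp for LOG7. On the higher-coordinate side it was at 3308 bp for LOG4 and 2935 bp for LOG7.

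**Figure D2:**
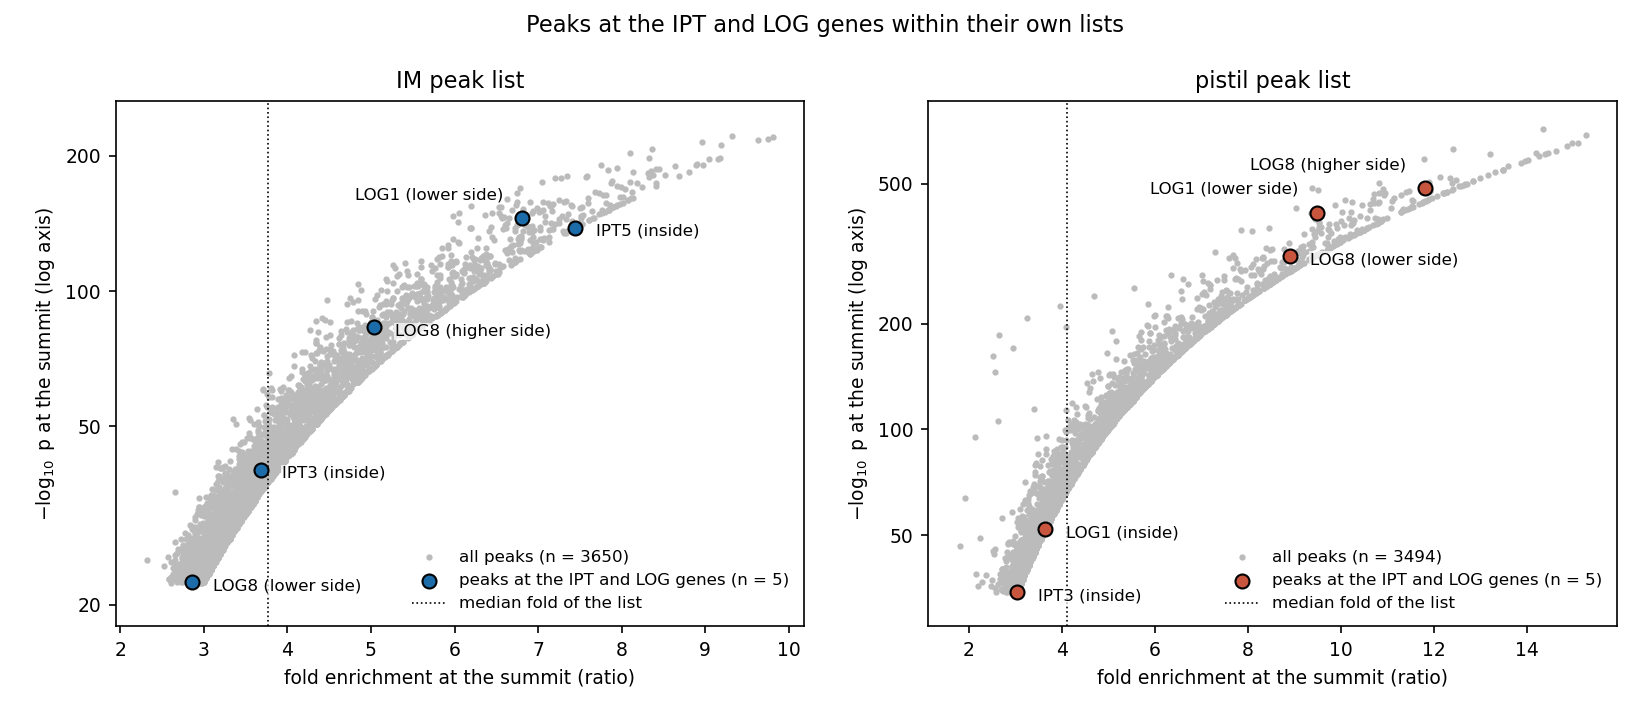
Fold enrichment (x axis, ratio) and −log10 p (y axis, log scale) of every peak in the IM list (left) and the pistil list (right), with the 5 peaks of each list at the IPT and LOG genes marked and a dotted line at the median fold. IPT5 and LOG1 lead in IM and LOG8 and LOG1 in pistil, while the IPT3 peak in pistil and the lower-side LOG8 peak in IM stand at the bottom end of their lists.

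Within each list, those of the 8 genes that had a peak can be put in order by their highest fold. In IM the highest folds were 7.45 at IPT5, 6.81 at LOG1, 5.04 at LOG8 and 3.69 at IPT3. In pistil they were 11.8 at LOG8, 9.49 at LOG1 and 3.03 at IPT3, with no peak at IPT5. The LOG8 values in both orders come from summits to which AT5G11960 was nearer. Of the 5 peaks in each list, 3 had a fold at or above the median of the list. Without a value per replicate, no neighbours in these orders can be said to differ. Counting only the gene nearest to each summit left IPT3, IPT5 and LOG1 in IM, 3 of 8 genes against 11.8% of all genes, and IPT3 and LOG1 in pistil, 2 of 8 against 10.8%.

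The other genes of cytokinin synthesis were described by the same rule. All IPT and LOG genes together number 18. Of the 9 LOG genes, 6 had a summit within 3 kb in both tissues (15.3% of all genes), since LOG3, LOG5, LOG6 and LOG9 were added to LOG1 and LOG8, and LOG2 had none. Each of these 4 further LOG genes was the nearest gene to its summits. Of the 9 IPT genes, 4 had a summit in IM (23.7% of all genes) and 2 in pistil (21.3%), since IPT6 was added in IM and IPT2, which encodes an enzyme that modifies tRNA, in both. IPT4, IPT8 and IPT9 had none, nor had CYP735A1 and CYP735A2, which encode the hydroxylases that make trans-zeatin nucleotides. Whether LOG and IPT genes differ was not tested.

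In the IM list the folds at LOG3 and LOG9 were close to that at LOG1. LOG3 had a summit inside the gene with a fold of 6.68 in IM (chromosome 2, 15623659 to 15625740, 94.5th percentile) and 4.06 in pistil (48.5th percentile). LOG9 had a summit at 1483 bp with a fold of 6.67 in IM (chromosome 5, 9132814 to 9133815) and at 1447 bp with a fold of 6.85 in pistil. At LOG5 the summits lay 136 bp from the gene in IM (fold 5.51, chromosome 4, 16745604 to 16746581) and 160 bp in pistil (fold 4.52). LOG6 had a summit inside the gene with a fold of 2.71 in IM (chromosome 5, 782898 to 783713, 1.01st percentile) and 7.69 in pistil (89.2nd percentile), and a further pistil peak 719 bp away with a fold of 5.26. In all of LOG3, LOG5, LOG6 and LOG9, the paired summits of the tissues were 24 to 57 bp apart.

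Peaks at the further IPT genes were of low or middle fold within their lists. IPT2 had different sites in the tissues, in IM at 135 bp (fold 2.78, 2.41st percentile) and in pistil at 2215 bp (fold 3.15, 12.5th percentile), and neither overlapped a peak of the other list. The IM peak at IPT6 had its summit 1766 bp away (fold 3.96), inside the neighbouring gene AT1G25400.

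**Figure D3:**
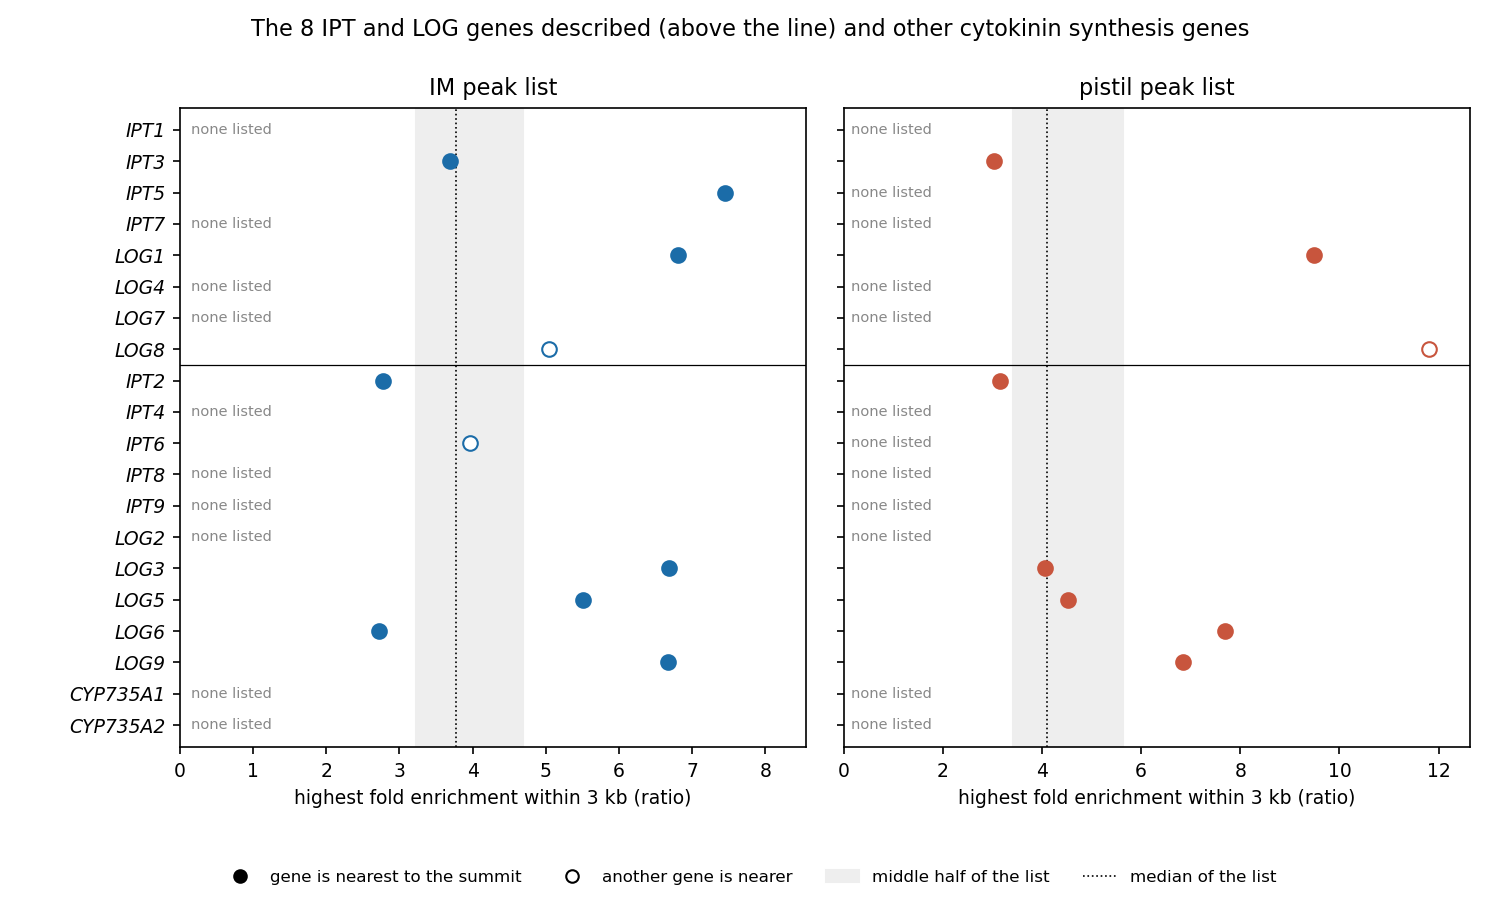
Highest fold enrichment (x axis, ratio) of a peak with its summit within 3 kb of each of 20 cytokinin synthesis genes (y axis), in the IM list (left) and the pistil list (right); grey bands span the quartiles of each list and open circles mark summits to which another gene is nearer. Of the 9 LOG genes 6 have a point in each panel, and of the 9 IPT genes 4 have one in IM and 2 in pistil.

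The rest of the cytokinin pathway was described with a list of 57 names, of which 56 matched a gene. With the further synthesis genes included, 26 of the 56 had a summit within 3 kb in IM (against 23.7% of all genes), 25 in pistil (against 21.3%) and 21 in both (against 15.3%). Of the 44 that are not synthesis genes, 20 had one in IM, 20 in pistil and 16 in both, beside the same shares of all genes. Type-A response regulators, which dampen the signal, had a summit in 6 of 10 cases in IM and 7 in pistil. For this and each role below, the shares of all genes were again 23.7% in IM and 21.3% in pistil. Within a role, genes were ranked by their higher fold in either list only to choose which to name. The lists differ in range, so this ranking does not compare binding. The first were ARR4 (fold 5.47 in IM and 8.25 in pistil), ARR5 (4.55 and 5.33) and ARR7 (4.03 and 4.87). The lowest type-A folds were 2.94 in IM, at ARR8, and 2.91 in pistil, at ARR9. All 6 CRF genes, which encode cytokinin response factors, had one in IM and 5 had one in pistil. By the higher of their folds in either list, the first were CRF1 (6.43 in IM and 6.65 in pistil), CRF4 (6.01 and 3.64) and CRF2 (4.06 and 4.45), although CRF4 had the lowest of the 5 folds in pistil. The oxidase genes that break cytokinin down had a summit in 3 of 7 cases in IM and 4 in pistil. In the same ranking the first were CKX6 (5.31 in IM and 9.15 in pistil), CKX7 (4.26 and 7.79) and CKX5 (2.95 and 4.62). CKX1 had a summit in pistil only, with a fold of 3.05 (6.71st percentile).

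Between hormone and response lie the receptors and the relay to the nucleus. Beside the counts that follow stand the shares of all genes with a summit within 3 kb, 23.7% in IM and 21.3% in pistil. Of 3 receptor genes, AHK3 had an IM summit (fold 3.04) and AHK4 a pistil summit (3.45). Of 6 phosphotransfer genes, AHP4 had summits in both tissues (6.65 in IM and 8.50 in pistil) and AHP6, an inhibitor of the pathway, in IM (3.90). Of 7 type-B response regulators, which activate transcription, ARR12 (5.61 in IM and 5.10 in pistil) and ARR18 (4.10 and 3.83) had summits in both. The 3 transport genes and the 2 conjugation genes had none in either list. Another gene was nearer to the summits given here for ARR5, CRF2, CKX1, CKX6, AHK3, AHP6 and ARR18. Counting the nearest gene alone left 20 of the 56 genes in IM (against 11.8% of all genes) and 19 in pistil (against 10.8%).

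**Figure D4:**
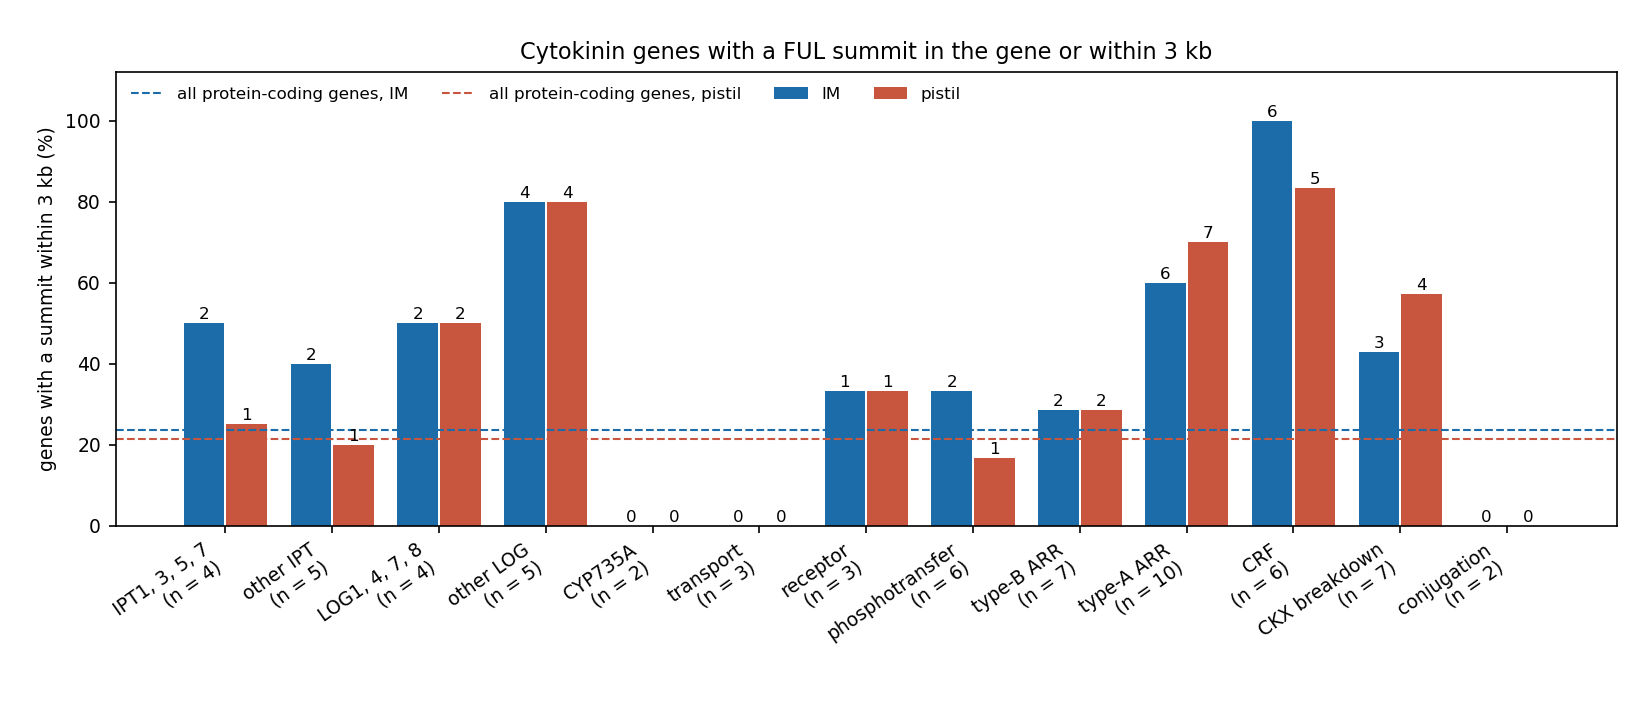
Share of genes (y axis, percent) with a FUL summit in the gene or within 3 kb, by role in the cytokinin pathway (x axis), for IM and pistil, with the number of such genes above each bar and dashed lines at the share of all protein-coding genes. The 4 IPT genes described have 2 in IM and 1 in pistil, the 4 LOG genes 2 in each, and the groups are small.

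For each gene of the 8 that was nearest to a summit, the most similar genes were sought over 2 tissues. These had the smallest distance between the pairs of percentiles in IM and pistil. Each percentile was that of the highest fold among summits within 3 kb to which the gene was nearest. It was set to 0 where there was no such summit, although a summit nearer to another gene may lie close by. For IPT5 the most similar genes were SCL30 (fold 7.52 in IM, no such summit in pistil) and AT5G59390 (7.34 in IM, no such summit in pistil), at distances of 0.16 and 0.22 percentile points. For LOG1 they were AT1G70944 (6.80 in IM and 9.37 in pistil) and TON1A (6.75 in IM and 9.72 in pistil), at 0.40 and 0.79 points. For IPT3 they were PEPC1 (3.69 in IM and 3.005 in pistil) and BEE1 (3.71 in IM and 2.99 in pistil), at 0.83 and 1.40 points.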

How the data were processed

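Per the submitters' processing notes, the tools were MACS2 2.1.0, Bowtie 1.1.2, deepTools and Picard 2.60, on the build TAIR10, with no order or role stated. The authors deposited 1 narrowPeak list per tissue, whose peak names say that replicates were pooled. The fold enrichment (a ratio) and the −log10 p at the summit are the authors' deposited values, as is a score that repeats the −log10 p times 10. How the caller was set, how listed peaks were selected and how the input was used is not given in the sources used here.

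From these, summit distances to genes were computed in Python 3.11.15 with pandas 2.3.3, after tests on simulated peaks. Genes came from RefSeq TAIR10.1, whose coordinates are not printed. As a check of its register, 29.5% of IM and 26.0% of pistil summits lay inside genes in place, and 56.3% to 62.0% when moved by 2 or 4 kb. Peaks overlapped when they shared at least 1 bp. A percentile is that of the fold in its own list. Where a summit lay in several genes, each counted as nearest. The 8 genes and the pathway list were chosen with earlier results of these data known. Genes named beyond the 8 were the other synthesis genes, neighbours of the 8 genes or of a summit, and up to 3 genes per other role by fold. ARR8 and ARR9 were added for the lowest type-A folds, and CKX1 for its summit in pistil only. The most similar genes were named too. ENT8 was the name that did not match. AHP2 and LOG2, symbols that 2 loci share, were told apart by synonym. Of the planned analyses, motifs in promoters were not searched and sequences were not used here.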

Additional observations from a re-analysis of the deposited data

How the results depend on the processing

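Windows of 1 and 2 kb, folds at or above the list median, 1 threshold on p for both lists, any base of a peak in place of its summit, stricter overlaps, genes of every type and the nearest gene alone gave 62 alternative counts, of which 45 stayed within 1.5 times of the reported one. With summits within 1 kb, and likewise within 2 kb, 3 peaks in place of 5 lay at the 8 genes in each list and 2 in place of 4 had a partner, since the LOG1 site and the lower-side LOG8 site lie beyond these windows. With folds at or above the list median the same counts were 3 and 2 in each list, and 1 gene in place of 2 was nearest to a pistil summit, since both IPT3 peaks are below the median. LOG1 kept a pistil summit within 1 kb but no IM summit. Of the 56 pathway genes, 17 in place of 26 had an IM summit at or above the median fold, and 17 at 1 threshold on p. In pistil 16 in place of 25 had one within 1 kb (against 11.9% of all genes), and 14 at or above the median fold. No share of all genes is given here for the median fold or for 1 threshold on p. Counts at those settings are therefore not to be set against the 23.7% (IM) and 21.3% (pistil) of the main rule. At 1 threshold on p the lower-side LOG8 peak left the IM list. No paired analysis was possible because peaks were called on the replicates together, and for the same reason no replicate could be left out. The read depth, and with it what a missing peak allows, is unknown.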
